A study of Mus musculus with 20 samples.

Results

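The comparison described is that of the antibody ABL503, given alone, with Control, in CD8+ T cells that had entered a tumour. It holds 10 of the 20 libraries of the study, 5 labelled ABL503 and 5 labelled Control, and every gene with at least 1 FPKM in at least 5 of the 20 libraries, which was 11794 of 45777 gene symbols. FPKM is a read count scaled by gene length and library size. Tumours were grown from MC38, a colon carcinoma line of the mouse, here carrying human PD-L1. All mice were C57BL/6 with human PD-1, human PD-L1 and human 4-1BB, treatment began once tumours averaged 150 to 200 mm3, and cells were sorted on day 4. The Control group is named in the labels by that word alone. The other 10 libraries received Pembrolizumab, an antibody that blocks PD-1, or the Combination of Pembrolizumab and ABL503.

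ABL503 is a bispecific antibody that binds both PD-L1 and 4-1BB. 4-1BB, encoded by Tnfrsf9, is a costimulatory receptor of the TNF receptor family that T cells display after activation. Once clustered, it recruits TRAF adaptors and signals through NF-kB and MAP kinases, which in CD8+ T cells is known to aid survival, division and cytokine output. Blocking PD-L1 removes a brake from the T-cell receptor, so the antibody joins blockade to costimulation. The human sequences limit what was measured: reads were aligned to the mouse genome, and the labels do not say which parts of the 3 genes are human, so values of Tnfrsf9, Pdcd1 and Cd274 cover the mouse parts only.

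Markers of CD8+ T cells were high in every library. Cd8a, which encodes the alpha chain of CD8, ran from 224 to 353 FPKM in Control and from 283 to 345 in ABL503, and none of 8 tested CD8 T-cell markers passed the test. Cd4 averaged 0.398 FPKM in Control and 0.311 in ABL503. The summed FPKM of 10 listed CD4 and regulatory T-cell genes, several of which activated CD8+ T cells also express, ran from 430 to 655 in Control and from 495 to 710 in ABL503. That of 15 macrophage and monocyte genes ran from 60.9 to 284 in Control and from 71.9 to 146 in ABL503, with Adgre1 at 0.0334 and 0.0385 on average. The summed level of 12 dendritic and antigen-presenting genes ran from 143 to 466 and from 117 to 304. No member of the lists for other cell types passed, but in some lists few members were tested. They were 0 of 8 neutrophil, 1 of 10 fibroblast and endothelial, 2 of 8 B-cell and 3 of 7 NK-cell markers, so the test says little there. The summed level of the neutrophil genes was 13.6 FPKM in ABL503 library 4. It was at most 0.948 in the other ABL503 libraries and at most 1.58 in Control. Column sums ran from 575918 to 643592 over the 10 libraries, and the correlation of a library with others of its group from 0.9591 to 0.9772. Read depth is unknown.

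Under ABL503 few genes passed the test, and nearly all of those that passed moved up. The genes that rose encoded TNF family ligands, the interleukin 1 decoy receptor, granzymes C and F, and heat-shock chaperones, while a lymphocyte GTPase gene and a G-protein regulator were among those that fell. Of 11794 genes, 73 passed (0.619%), 69 of them higher (0.585%) and 4 lower (0.0339%), in limma's test at a Benjamini-Hochberg adjusted p under 0.05. At an unadjusted p under 0.05 there were 1292. The median change of all genes was -0.01 on the log2(FPKM + 1) scale, on which every change is given and which understates the fold change of genes with low values. Of all genes 5732 had a positive and 6062 a negative difference. Counts of positive or negative members in the lists below are to be read beside these. The 5 ABL503 libraries all lay above the 5 Control libraries for 200 genes (1.7%) and all below for 105 (0.89%). Of the genes that passed, 60 of the 69 rises and 3 of the 4 falls were separated in this way.

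The count rested in part on single libraries. It was 46 without ABL503 library 3 and 40 without ABL503 library 5. Of 62 named genes that passed, 21 passed whichever of the 10 libraries was left out and under each of 10 other ways of computing the test. These were Hspd1, Hsph1, Hsp90ab1, Hsp90aa1, Hspa1b, Hspa8, Tnfsf4, Cd70, Il1r2, Il23a, Gzmc, Zbtb32, Msc, Plscr1, Cnpy4, Tff1, Ccdc184, Mrps6, Ms4a4a, Fabp5 and, as the only fall, Gimap6.

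**Figure D1:**
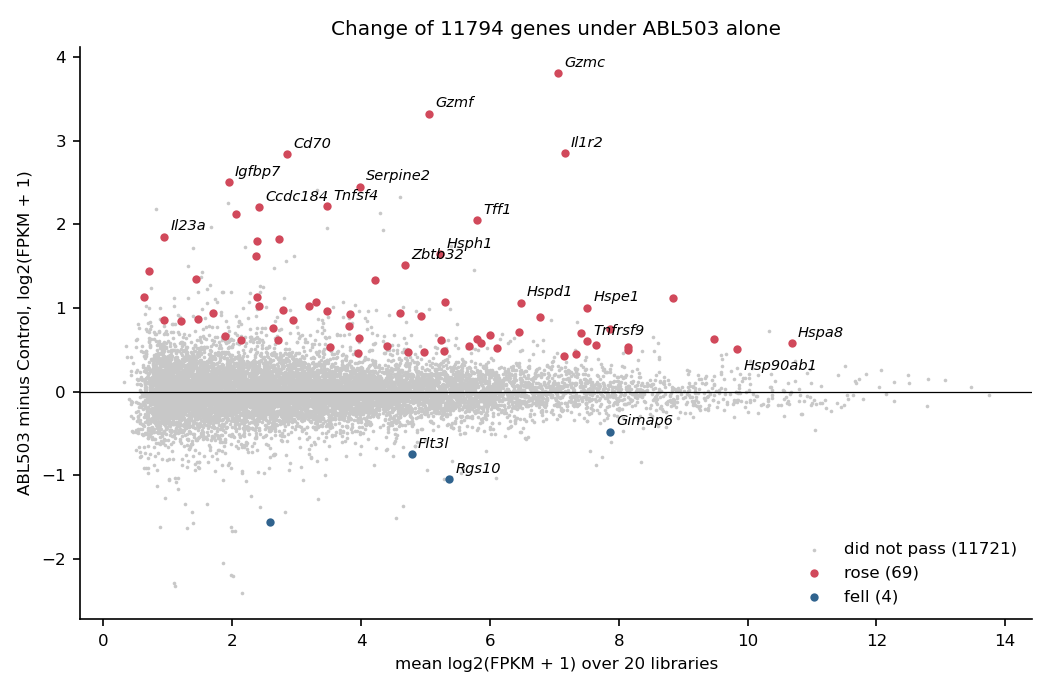
Change of each of 11794 genes between ABL503 and Control (vertical axis, difference of group means of log2(FPKM + 1)) against its mean log2(FPKM + 1) over 20 libraries (horizontal axis). Grey points did not pass, red points rose (69) and blue points fell (4), and the rises include genes of low level, such as Il23a, and of high level, such as Hspa8.

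The TNF superfamily ligands Tnfsf4 and Cd70 rose from low levels. Tnfsf4 encodes OX40L, the ligand of the costimulatory receptor OX40, and lies on chromosome 1 at 161395438 to 161418206 (GRCm38). It stood at 5.43, 6.78, 1.12, 7.32 and 4.36 FPKM in Control libraries 1 to 5 and at 25.5, 20.2, 24.9, 20.1 and 32.5 in ABL503 libraries 1 to 5. The lowest ABL503 value was well above the highest Control value. The rise was 2.22 (SE 0.29, adjusted p = 0.0014). Cd70, the ligand of CD27, on chromosome 17 at 57145997 to 57149777, stood at 1.19, 3.96, 0.909, 1.06 and 3.5 FPKM in Control and at 13.9, 17.6, 27.6, 18 and 23 in ABL503. Again no value of one group reached the other, and the rise was 2.84 (SE 0.46, adjusted p = 0.0037).

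The rest of the ligand family held to a narrower range. Of 13 tested members, 2 rose and 0 fell, 12 had a positive difference and the median was 0.29, beside -0.01 for all genes. The summed level of the 17 listed ligands ran from 324 to 437 FPKM in Control and from 461 to 584 in ABL503. Tnfsf9, which encodes the natural ligand of 4-1BB, averaged 24.8 ± 8.93 FPKM in Control and 39.4 ± 10.1 in ABL503 (SD, n = 5, as for all means), with overlapping libraries and an adjusted p of 0.33. Ltb, the lymphotoxin beta subunit, averaged 133 ± 15.1 and 162 ± 11.1, with all ABL503 libraries above Control but an adjusted p of 0.40. Cd40lg, the CD40 ligand, had the only negative difference among the 13 (-0.95, SE 0.38, adjusted p = 0.34). Tnf itself stood at 52.3 ± 6.02 and 56.6 ± 20 FPKM.

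Among the receptors, Tnfrsf9 rose. It ran from 97.4 to 131 FPKM in Control and from 139 to 183 in ABL503, so every treated library lay above every Control library, and the rise was 0.60 (SE 0.12, adjusted p = 0.014). Without ABL503 library 5 the adjusted p was 0.0534. It was the only one of 11 tested receptors of this superfamily to pass (median -0.06). Tnfrsf4, the OX40 receptor that Tnfsf4 engages, averaged 302 ± 73.2 and 417 ± 61.7 FPKM (adjusted p = 0.39), and Tnfrsf18, which encodes the costimulatory receptor GITR, 676 ± 111 and 877 ± 71.1 (adjusted p = 0.28). For GITR the 2 groups did not overlap.

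Of the 4-1BB signalling chain, the receptor gene alone passed. Among 21 tested (TRAF adaptors, IAP ligases, kinases and NF-kB subunits, with the receptor and its ligand) 1 rose, and the median was 0.03. Traf1, the adaptor most closely tied to 4-1BB, averaged 145 ± 17.3 FPKM in Control and 146 ± 20.9 in ABL503. Map3k14, the kinase NIK of the alternative NF-kB pathway, ran from 5.14 to 7.94 FPKM in Control and from 2.53 to 5.01 in ABL503, a difference of -0.55 (SE 0.18, adjusted p = 0.23). Among 22 NF-kB feedback and target genes 1 rose, Tnip3, an inhibitor of NF-kB that binds A20, by 1.02 (SE 0.20, adjusted p = 0.014). Without ABL503 library 3 or 5 it no longer passed, with an adjusted p of up to 0.0525. In the downstream of its RefSeq promoters Tnfrsf9 held the NF-kB consensus, in matches that overlap at bases -43 and -42 from the start site. Of the tested genes with a promoter entry, 6.0% held it, so the match is a description only.

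**Figure D2:**
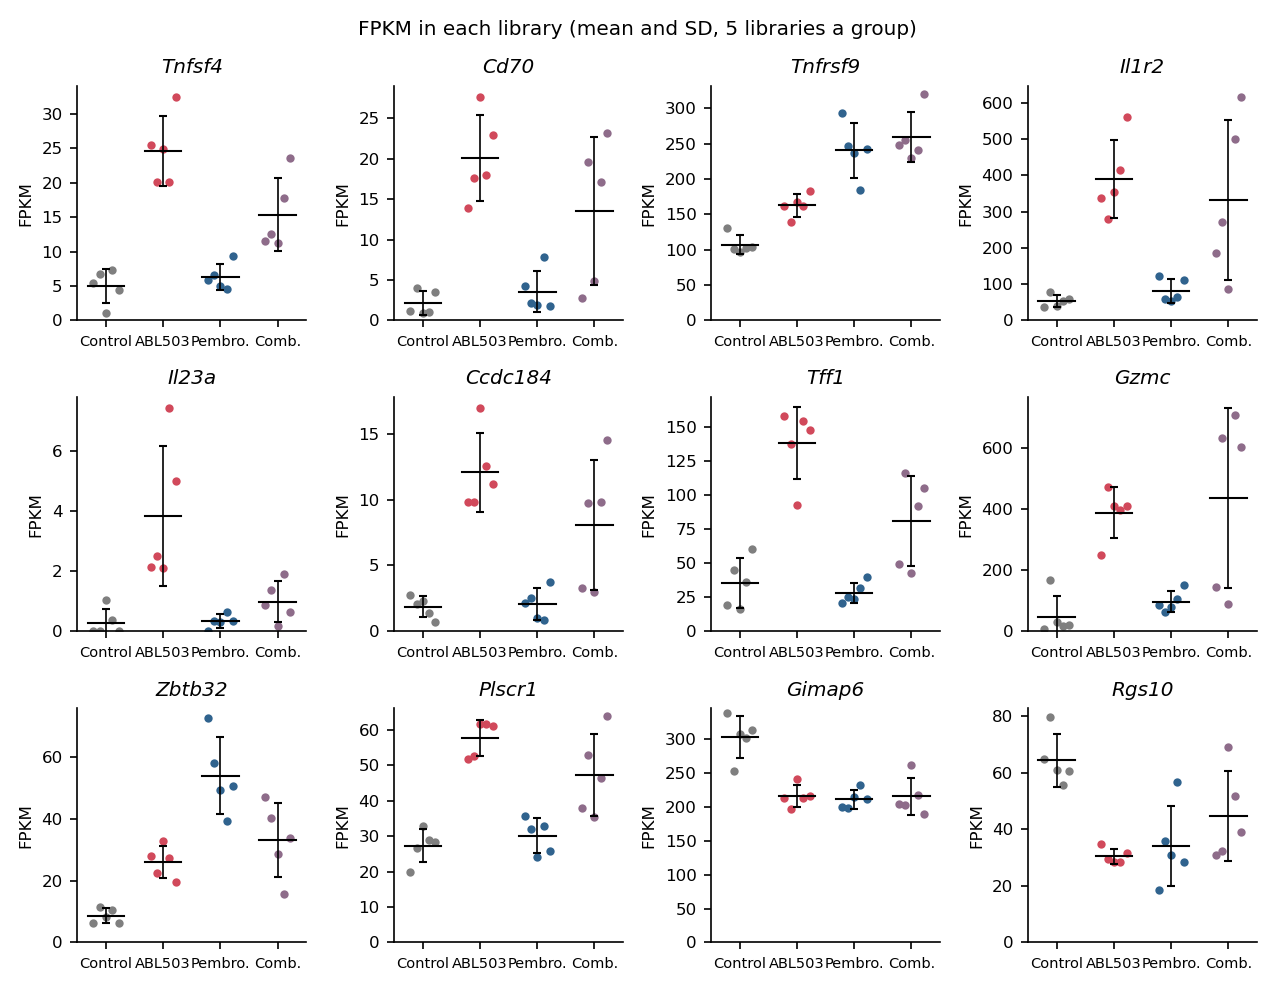
FPKM of 12 genes in each of the 20 libraries, by group, with a black line at the mean and a bar of 1 SD (n = 5; Pembro. is Pembrolizumab and Comb. the Combination). The ABL503 libraries stand above all Control libraries for the first 10 genes and below them for Gimap6 and Rgs10, and the 5 Combination libraries are widely spread for Il1r2, Gzmc and Cd70.

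Of the interleukin 1 family, a single receptor gene stood out. Il1r2 encodes the decoy receptor, which binds interleukin 1 without passing on a signal, and lies on chromosome 1 at 40084692 to 40125230. It stood at 37.5, 79, 38.8, 54.5 and 58.8 FPKM in Control libraries 1 to 5 and at 338, 281, 353, 415 and 562 in ABL503 libraries 1 to 5. The lowest treated library was thus over 3 times the highest Control library. The rise was 2.85 (SE 0.39, adjusted p = 0.0019), and no other of the 13 tested family members passed (median -0.08). The signalling receptor Il1r1 was below the filter, with a mean of 0.06 FPKM in Control and 0.0835 in ABL503. Il1rap, the shared accessory chain, averaged 1.98 ± 0.839 and 2.77 ± 0.948 FPKM, and Il18r1, a receptor chain for interleukin 18, 30.2 ± 3.67 and 25.5 ± 4.49.

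Among secreted factors, Il23a, which encodes the p19 subunit of interleukin 23, rose from a level near 0. It ran from 0 to 1.03 FPKM in Control and from 2.13 to 7.43 in ABL503 (1.85, SE 0.29, adjusted p = 0.0031), below the level of the rule for named genes and named here after its values were seen. Csf2, the growth factor GM-CSF, ran from 4.67 to 13.4 FPKM in Control and from 29.3 to 97.7 in ABL503. Its libraries did not overlap, but they were widely spread, and the difference of 2.32 (SE 0.60) had an adjusted p of 0.095. Ifng averaged 635 ± 151 and 854 ± 106 FPKM (adjusted p = 0.28), and Il2 6.51 ± 4.93 and 8.77 ± 2.84 (adjusted p = 0.56). Of 14 tested genes of the secreted cytokine list, which does not hold Il23a, 0 rose and 1 fell, with a median of 0.07. Ccl3, a chemokine that attracts leukocytes, was the only one of 8 chemokines to rise, from 279 ± 167 to 544 ± 57.7 FPKM (1.12, SE 0.25, adjusted p = 0.045). Control library 2, at 570 FPKM, overlapped the ABL503 range of 477 to 603, and the call was lost in 9 of 10 runs that left out 1 library, all but that without Control library 2.

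Of the lists, that of the cytosolic chaperones had the most risen members. Heat-shock proteins fold newly made and damaged proteins: HSP70s (Hspa1a, Hspa1b and the constitutive Hspa8) bind exposed stretches, HSP110 (Hsph1) resets them, and HSP90s (Hsp90aa1, Hsp90ab1) hold client kinases and receptors. Their stress-induced transcription is known to run through HSF1, which binds repeats of a short unit, the heat-shock element. The promoters of 3 risen genes are shown for that reason, each from 250 bases before to 50 after the RefSeq start site (GRCm38.p6), with capitals at the element GAANNTTC, on either strand, and at its 3-unit form, in which GAA follows after 2 more bases.
Hspe1, chr1:55087898-55088197, plus strand: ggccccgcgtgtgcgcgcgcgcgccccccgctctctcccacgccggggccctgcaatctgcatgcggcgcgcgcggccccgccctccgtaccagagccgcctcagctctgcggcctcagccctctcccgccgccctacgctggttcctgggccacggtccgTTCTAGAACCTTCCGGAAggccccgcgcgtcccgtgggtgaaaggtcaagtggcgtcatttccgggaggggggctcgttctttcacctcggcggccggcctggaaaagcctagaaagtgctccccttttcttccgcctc
Hsph1, chr5:149636287-149636586, minus strand: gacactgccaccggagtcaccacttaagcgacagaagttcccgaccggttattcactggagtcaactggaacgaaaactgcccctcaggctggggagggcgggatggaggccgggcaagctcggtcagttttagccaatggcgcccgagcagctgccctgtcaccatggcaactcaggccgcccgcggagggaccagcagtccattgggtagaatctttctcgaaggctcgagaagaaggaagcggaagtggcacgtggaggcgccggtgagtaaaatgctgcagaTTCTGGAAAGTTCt
Hspa1a, chr17:34972107-34972406, minus strand: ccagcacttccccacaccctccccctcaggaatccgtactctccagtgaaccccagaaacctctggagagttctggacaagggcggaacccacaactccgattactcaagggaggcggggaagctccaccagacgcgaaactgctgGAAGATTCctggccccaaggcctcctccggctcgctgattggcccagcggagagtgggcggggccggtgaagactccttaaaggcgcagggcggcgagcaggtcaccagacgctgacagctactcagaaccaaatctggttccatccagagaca

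The matches to GAANNTTC began at base -84 in Hspe1, at 42 in Hsph1 and at -104 in Hspa1a. In Hspe1 and Hsph1 the capitals begin before that base, with the 3-unit form. The promoter of Hspa1b was identical to that of Hspa1a at 296 of 300 bases and had its match at the same place. Of 7 risen chaperone genes with a promoter entry, 5 held GAANNTTC, as did 9 of 36 (25%) listed chaperone genes that did not pass and 7.12% of all tested genes with an entry. The 3-unit form, which contains the shorter one, was in 3 of the 7, in 2 of the 36 (5.56%) and in 0.606% of tested genes. Ahsa1 and Ahsa2 held neither. Hspa8, Hsp90aa1 and Hsp90ab1 had no entry. The entries are not independent, since 1 of the 2 Hspd1 entries overlaps that of Hspe1 and holds the same element on the other strand.

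Of 12 tested cytosolic chaperone genes, 6 rose and 0 fell, with a median change of 0.60 beside -0.01 for all genes. The summed level of the 15 listed genes ran from 2958 to 3107 FPKM in Control and from 4080 to 5205 in ABL503. Hsph1 stood at 17.6, 15.6, 28.5, 29.5 and 30.8 FPKM in Control libraries 1 to 5 and at 91.4, 117, 76.8, 48.3 and 61.5 in ABL503 libraries 1 to 5 (1.64, SE 0.24, adjusted p = 0.0027). Hspa1b stood at 3.07, 2.65, 2.28, 2.94 and 5.02 FPKM in Control and at 13.4, 19.9, 19.1, 8.58 and 9.9 in ABL503 (1.82, SE 0.29, adjusted p = 0.0037). For both genes ABL503 libraries 1 to 3 were the highest of the 10 and libraries 4 and 5 the next, with no overlap. Hspa1a, whose sequence is so close to Hspa1b that reads may be split between them, rose by 1.80 (SE 0.33, adjusted p = 0.011).

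The abundant members rose by less on this scale, with tight libraries. Hspa8 stood at 1501, 1521, 1390, 1587 and 1410 FPKM in Control and at 2367, 2430, 2375, 1964 and 1954 in ABL503 (0.58, SE 0.10, adjusted p = 0.0048). Hsp90aa1 ran from 549 to 691 FPKM and from 815 to 1236 (0.63, SE 0.10, adjusted p = 0.0048), and Hsp90ab1 from 702 to 852 and from 1017 to 1209 (0.51, SE 0.08, adjusted p = 0.0031). Libraries 1 to 3 were again the highest for Hspa8. The highest difference in the list, 2.41, belonged to the small heat-shock protein gene Hspb1, named after its values were seen, which averaged 6.83 ± 6.46 and 35.0 ± 24.5 FPKM with overlapping libraries and an adjusted p of 0.19. Of 25 co-chaperones and heat-shock factors 2 rose (median 0.21): Ahsa1, the activator of the HSP90 ATPase, by 0.51 (SE 0.12, adjusted p = 0.042), and its relative Ahsa2 by 0.64 (SE 0.14, adjusted p = 0.042). Their calls were lost in 9 and 8 of the 10 runs that left out 1 library. Stip1, which links HSP70 to HSP90, averaged 45.8 ± 2.24 and 65.9 ± 9.2 FPKM without overlap (adjusted p = 0.086).

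In mitochondria, the folding chamber of HSP60 (Hspd1) and its lid HSP10 (Hspe1) both rose. Hspd1 stood at 61.3, 61, 72.1, 65.8 and 55.1 FPKM in Control libraries 1 to 5 and at 144, 175, 145, 106 and 105 in ABL503 libraries 1 to 5 (1.06, SE 0.14, adjusted p = 0.0014). Hspe1 ran from 116 to 172 FPKM and from 192 to 405 (1.00, SE 0.19, adjusted p = 0.014). Neither gene's groups overlapped, and libraries 1 and 2 were the highest for Hspe1. The 2 genes lie head to head on chromosome 1, at 55077833 to 55088243 and 55088148 to 55091317, and their models share 96 bases on opposite strands, where unstranded reads cannot be told apart. Hspd1-ps3, a pseudogene of Hspd1 that may share its reads, passed as well. Other pseudogenes also rose, such as Gm15459, Gm8355 and Gm12346. Gm15459 and Gm8355 were higher in ABL503 libraries 1 to 3 than in 4 and 5, as Hspa8 was. Whether these pseudogenes share reads with chaperone genes was not tested. The 69 rises may count some signals more than once. All 15 tested chaperonin and mitochondrial chaperone genes had a positive difference (median 0.20), of which 2 rose. The cytosolic CCT ring, which folds actin and tubulin, was among the others: Tcp1 averaged 114 ± 3.42 and 147 ± 9.11 FPKM without overlap (adjusted p = 0.053), and Cct7 131 ± 7.19 and 168 ± 16.9 (adjusted p = 0.16).

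Endoplasmic reticulum chaperones did not pass. Of 21 tested, 0 rose and 0 fell (median 0.13). Hspa5, the chaperone BiP, averaged 749 ± 37.1 and 882 ± 106 FPKM with overlap (adjusted p = 0.27), and Hsp90b1 149 ± 11.5 and 194 ± 10.7 without it (adjusted p = 0.16). Immediate early genes, which cell isolation is also known to induce, did not pass either, with 0 of 19 and a median of -0.19. Their summed level ran from 1850 to 2633 FPKM in Control and from 1753 to 2833 in ABL503. With the mean level of that list as a covariate, 6 of 12 cytosolic chaperones and 2 of 15 chaperonins rose, as without it. The level of immediate early genes is not a measure of heat-shock stress. An effect of cell isolation on the chaperone genes was not tested. In bulk libraries such as these, more cells expressing a gene and more RNA per cell cannot be told apart.

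**Figure D3:**
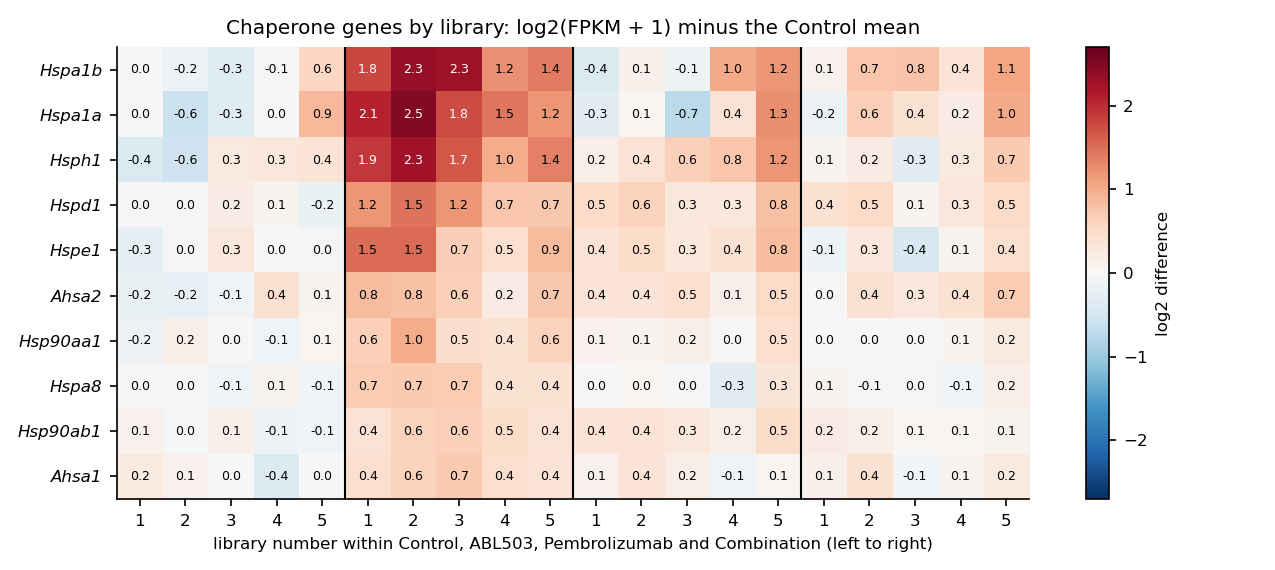
The 10 chaperone genes that rose (rows) in each of the 20 libraries (columns), as log2(FPKM + 1) minus the Control mean, with red above and blue below that mean. All 50 ABL503 values are positive, from 0.224 to 2.47, beside 42 of 50 in Pembrolizumab and 39 of 50 in the Combination.

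In mean FPKM, Pembrolizumab and the Combination lay between Control and ABL503 for each of the 10 risen chaperone genes, at a distance that differed by gene. Over these genes the median difference from the Control mean was 0.737 in ABL503 libraries, 0.309 in Pembrolizumab and 0.193 in the Combination, whose mice also received ABL503. Hsph1 averaged 24.4 ± 7.21 FPKM in Control, 79.1 ± 26.8 in ABL503, 38.1 ± 10.9 in Pembrolizumab and 27.7 ± 7.23 in the Combination. Hspa8 averaged 1482 ± 81.5, 2218 ± 238, 1494 ± 230 and 1513 ± 110 in the same order. Hsp90ab1 was nearer to ABL503 in Pembrolizumab, 0.34 above Control (adjusted p = 0.013) and 0.17 below ABL503 on the log2 scale (adjusted p = 0.34), and Hspd1 also passed in Pembrolizumab against Control (0.51, adjusted p = 0.033). These genes were picked for their rise in ABL503, so the order of the means is a description.

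Granzymes are the proteases that T cells release into a target, and perforin opens its membrane. Gzmc rose furthest of all genes tested. It lies in the granzyme cluster on chromosome 14 at 56231397 to 56241647 and stood at 6.48, 167, 29.3, 17.1 and 20.3 FPKM in Control libraries 1 to 5 and at 248, 473, 411, 396 and 409 in ABL503 libraries 1 to 5. Control library 2 stood apart from its group and still lay below every ABL503 library, and the rise was 3.81 (SE 0.63, adjusted p = 0.0048). Gzmf rose as well, from a range of 0.583 to 15.3 FPKM to one of 40 to 104 (3.32, SE 0.72, adjusted p = 0.036), a call lost in 9 of 10 runs that left out 1 library. Its neighbour Gzmd was listed at 0 in all Control libraries and ran from 0 to 16.5 in ABL503 (adjusted p = 0.13). Gzme ran from 0 to 1.18 in Control and from 0.408 to 13.3 in ABL503 (adjusted p = 0.051). Reads of these near copies may be shared between them.

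The granzymes best known in mouse killer cells did not pass. Gzmb averaged 633 ± 162 FPKM in Control and 1017 ± 142 in ABL503, without overlap (0.72, SE 0.20, adjusted p = 0.13). Prf1, perforin, averaged 6.3 ± 2.27 and 12 ± 4.09 with overlap (adjusted p = 0.075), and Gzma 265 ± 77.8 and 215 ± 142 (adjusted p = 0.66). Of 9 tested members of the list 2 rose and 0 fell, with a median of 0.84. None of 14 genes of granule biogenesis and release passed (median 0.11). Among 9 serpins, which inhibit such proteases, Serpine2 rose, from 2.1 ± 2.46 to 15.3 ± 10.6 FPKM (2.45, SE 0.45, adjusted p = 0.010), without overlap between 0.434 to 6.42 in Control and 6.45 to 32.6 in ABL503. Serpinb6b averaged 94.3 ± 9.53 and 126 ± 13.1 (adjusted p = 0.27).

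A handful of transcription factor genes rose. Those named next, Zbtb32, Msc, Irf8 and Batf3, each also passed in Pembrolizumab against Control. The rises there were 2.52, 1.24, 1.53 and 1.30 in that order, with adjusted p from 4.9e-06 to 0.043. Zbtb32, a zinc-finger repressor of activated lymphocytes, stood at 6.3, 11.6, 8.28, 10.6 and 6.23 FPKM in Control and at 27.9, 22.6, 32.7, 27.2 and 19.4 in ABL503 (1.51, SE 0.24, adjusted p = 0.0031). Msc, the helix-loop-helix repressor musculin, ran from 0 to 1.26 FPKM and from 2.8 to 11.9 (2.12, SE 0.35, adjusted p = 0.0048). Both genes had no overlap between groups. Irf8, an interferon regulatory factor that effector CD8+ T cells also induce, rose by 0.90 (SE 0.17, adjusted p = 0.014), and Batf3, an AP-1 family factor, by 1.62 (SE 0.32, adjusted p = 0.016). The call for Batf3 was lost without Control library 2, ABL503 library 3 or ABL503 library 5, with an adjusted p of up to 0.0637. Both are also known from dendritic cells, whose summed markers are given above, and both passed when the averaged markers of other cells entered the model as a further term. That term averages all other cell types together and does not measure dendritic cells alone. Whether such cells contributed to the rise was not tested. In the list of 22 exhaustion and effector factors 2 rose and 0 fell (median 0.16). Zeb2, a factor of terminal effectors, averaged 1.37 ± 0.327 and 2.49 ± 0.35 FPKM without overlap (adjusted p = 0.13). Tox, a factor of exhaustion, stood at 6.22 ± 1.18 and 5.71 ± 1.13.

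Of 20 inhibitory receptors 1 rose. Havcr2, which encodes TIM-3, ran from 26.9 to 55.9 FPKM in Control and from 60 to 71.9 in ABL503 (0.67, SE 0.15, adjusted p = 0.039), a call lost in 9 of the 10 runs that left out 1 library. Lag3 averaged 1.05 ± 0.122 and 2.27 ± 1.02 FPKM without overlap (adjusted p = 0.31), and Klrc1, the NKG2A receptor, 300.1 ± 26 and 399 ± 38.4 (adjusted p = 0.23). The mouse parts of Pdcd1 stood at 47.3 ± 23.8 and 40.6 ± 8.06 FPKM, and those of Cd274 at 25.3 ± 5.74 and 24 ± 5.96. Il2ra, the activation-induced interleukin 2 receptor chain, averaged 16.1 ± 1.72 and 24.6 ± 3.06 without overlap (adjusted p = 0.27). Its difference was the highest of 26 cytokine receptor and STAT feedback genes, of which none passed (median -0.10).

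Metabolic genes contributed single members. Of 18 glycolysis and glucose transport genes 16 had a positive difference and 2 rose (median 0.17): the glucose transporter gene Slc2a3, from 7.34 ± 1.73 to 13.3 ± 2.21 FPKM (0.78, SE 0.17, adjusted p = 0.033), and Pgk1, phosphoglycerate kinase, from 186 ± 16 to 270 ± 33.1 (0.53, SE 0.12, adjusted p = 0.036). Their calls were lost in 8 and 9 of the 10 runs that left out 1 library. Tpi1 and Aldoa, enzymes of the same path, each had an adjusted p of 0.057. Of 27 cholesterol and fatty acid synthesis genes 22 had a positive difference and 1 rose (median 0.25). It was Idi1, an isomerase of the sterol path, which ran from 8.26 to 13 FPKM in Control and from 17.2 to 27.7 in ABL503 (0.93, SE 0.20, adjusted p = 0.032), lost in 8 of the runs. Fdps, the next enzyme of that path, averaged 40.2 ± 6.12 and 70.8 ± 8.4 FPKM without overlap (adjusted p = 0.17). Fabp5, a fatty acid carrier, rose from 41.7 ± 4.32 to 64.9 ± 6.78 (0.63, SE 0.11, adjusted p = 0.0066), and Acot7, which cleaves fatty acyl-CoA, by 0.42 (SE 0.10, adjusted p = 0.048), a call lost in all 10 runs.

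Among rises outside the lists, the smallest adjusted p was that of Plscr1, a phospholipid scramblase of the membrane. It stood at 20, 26.5, 32.9, 28.8 and 28.4 FPKM in Control and at 51.7, 52.7, 61.6, 61.6 and 61.2 in ABL503 (1.07, SE 0.15, adjusted p = 0.0022). Tff1, a secreted trefoil peptide best known from the stomach lining, stood at 19.6, 45, 16.7, 36.4 and 60.7 FPKM in Control and at 158, 137, 92.6, 154 and 147 in ABL503 (2.05, SE 0.31, adjusted p = 0.0031). Epithelial and tumour markers summed to between 11.2 and 17.6 FPKM in Control and between 10.0 and 14.2 in ABL503, and none of the 4 tested passed. Ccdc184, a coiled-coil protein gene, ran from 0.733 to 2.8 FPKM in Control and from 9.79 to 17 in ABL503 (2.21, SE 0.34, adjusted p = 0.0031). Cnpy4 rose from 4.11 ± 0.714 to 9.12 ± 1.66 FPKM (0.98, SE 0.14, adjusted p = 0.0027). For all 4 genes the groups were apart.

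Mitochondrial and membrane genes made up part of the remainder. Mrps6, a mitochondrial ribosomal protein, rose by 0.88 (SE 0.15, adjusted p = 0.0048) from 76.9 ± 11.9 FPKM, and Ms4a4a, a four-span membrane protein, by 1.33 (SE 0.23, adjusted p = 0.0058) from 8.05 ± 3.45. The latter overlapped by a narrow margin, at 13.4 FPKM in Control library 5 and 13.2 in ABL503 library 2. Ly75, the endocytic receptor DEC-205, rose by 0.85 (SE 0.15, adjusted p = 0.0092) and Plp2, a membrane proteolipid, by 0.50 (SE 0.09, adjusted p = 0.011). Others past the threshold were the endosome tether Eea1 (0.76), the prolyl isomerase Fkbp1a (0.44), the phosphatase Dusp14 (0.71), the kinases Cdk6 (0.61) and Pbk (1.13), Mcub, an inhibitory subunit of the mitochondrial calcium channel (1.07), and Lrpprc, which stabilises mitochondrial transcripts (0.61). Their adjusted p ran from 0.014 for Eea1 to 0.046 for Mcub. Tubb6, Tmx2, Golt1b, Sdf4, Glipr1 and Praf2 completed the rises above the level of the rule, by 0.46 to 0.93. Of these 13 genes Eea1 alone passed whichever library was left out. Lower still were Scin, Igfbp7, Arhgdig, Tpmt, Lpcat1, Poglut2 and Tmem158, whose Control means were between 0.216 and 1.37 FPKM. The actin-severing gene Scin went from at most 0.333 FPKM in Control to between 0.768 and 4.21 in ABL503 (1.45, SE 0.26, adjusted p = 0.0087).

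Falls were few. Gimap6, one of the GTPases of immunity-associated proteins that sustain resting lymphocytes, lies on chromosome 6 at 48701583 to 48708244. It stood at 339, 253, 308, 302 and 314 FPKM in Control libraries 1 to 5 and at 213, 198, 242, 213 and 217 in ABL503 libraries 1 to 5 (-0.48, SE 0.09, adjusted p = 0.011). The highest treated library lay below the lowest Control library. All 8 tested members of the family had a negative difference (median -0.32), beside 6062 of all 11794 genes. Without overlap, below Control, were 4 of the 8, beside 0.89% of all genes, but only Gimap6 fell. Their summed level ran from 760 to 987 FPKM in Control and from 663 to 683 in ABL503, with the 5 treated libraries far closer to each other than the Control libraries were. Gimap4 had a difference of -0.38 (SE 0.09, adjusted p = 0.062) and Gimap3 one of -0.43 (SE 0.13, adjusted p = 0.17).

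Rgs10, a brake on G-protein signalling, stood at 64.9, 79.8, 60.8, 55.7 and 60.5 FPKM in Control and at 34.6, 29.4, 28.4, 28.5 and 31.5 in ABL503 (-1.05, SE 0.22, adjusted p = 0.032). Its groups lay far apart, yet the call was lost in 7 of the 10 runs that left out 1 library. Flt3l, the growth factor of dendritic cells, stood at 25.2, 44.5, 47.4, 45.4 and 35.4 FPKM in Control and at 21.9, 21, 25.3, 23.5 and 21.8 in ABL503 (-0.74, SE 0.15, adjusted p = 0.019). Control library 1 overlapped the treated range, and 5 of the 10 runs lost the call. The fourth was the predicted gene LOC115488275 (-1.56, SE 0.34, adjusted p = 0.036), lost in 8 of the runs. Among 8 regulators of G-protein signalling none rose, while Rgs16 averaged 53.6 ± 11.3 and 81.5 ± 11.7 FPKM (adjusted p = 0.074).

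Type I interferon response genes, which mark antiviral alarm, passed in neither direction. Of 34 tested, 28 had a negative difference, and the median was -0.31. Ifit3b averaged 8.55 ± 2.83 and 4.48 ± 0.622 FPKM without overlap (-0.76, SE 0.18, adjusted p = 0.064), and Ifit3 35.4 ± 14.3 and 19.3 ± 3.11 with it (adjusted p = 0.17). The summed level of the 39 listed genes overlapped, from 1114 to 1432 FPKM in Control and from 875 to 1279 in ABL503. Of 24 stem-like, naive and memory genes none passed and 17 had a negative difference (median -0.25). Tcf7, which encodes the stem-like factor TCF1, averaged 36.5 ± 14 and 24.9 ± 10.6 FPKM (adjusted p = 0.65). Lef1, its partner, averaged 28.9 ± 6.06 and 18.6 ± 2.72 without overlap (adjusted p = 0.19), and Satb1, a chromatin organiser, 44.1 ± 14.6 and 32.1 ± 2.55. Ccr7, a receptor for homing to lymph nodes, had the highest positive difference of that list (0.60, SE 0.24, adjusted p = 0.34).

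The remaining lists had no member past the threshold. They covered T-cell receptor genes (19 tested, median -0.12), the CD28 and SLAM family (13, 0.13), chemokine and homing receptors (12, 0.08), oxidative stress (15, 0.04), hypoxia (13, 0.05), amino acid transport and one-carbon enzymes (17, 0.12), S phase (26, 0.09) and mitosis (26, 0.07). Mki67, the marker of dividing cells, averaged 6.89 ± 1.81 and 7.59 ± 0.547 FPKM (adjusted p = 0.81). Nfe2l2, the oxidative stress factor NRF2, averaged 63.6 ± 4.92 and 46.3 ± 6.11 without overlap (-0.46, SE 0.12, adjusted p = 0.10).

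**Figure D4:**
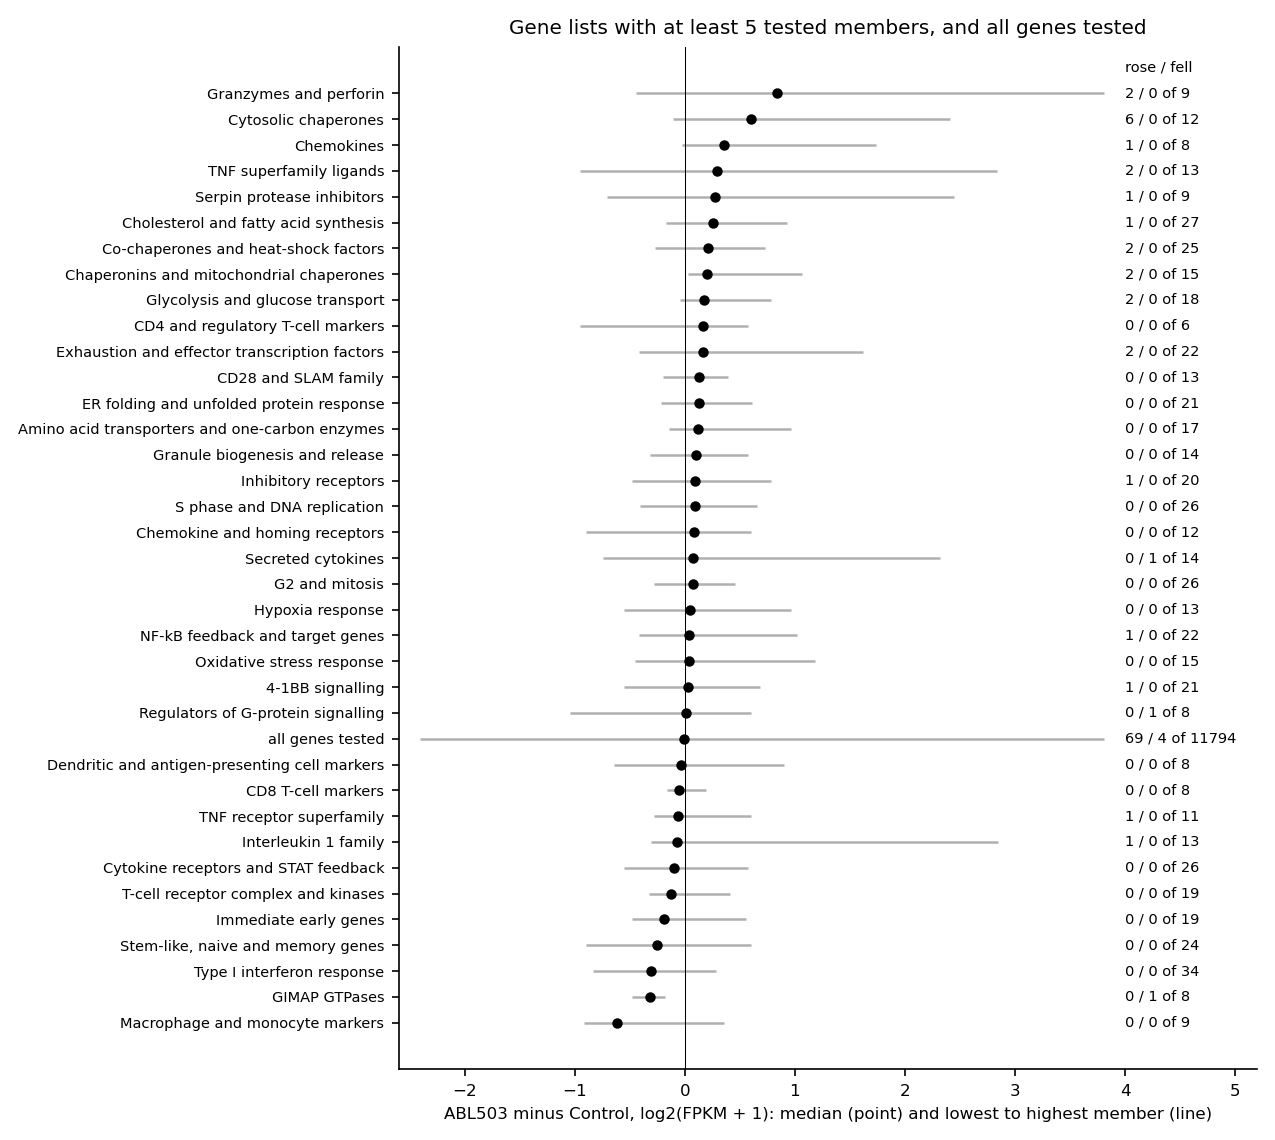
Median change of each of 36 gene lists with at least 5 tested members, and of all genes tested (points), with a line from the lowest to the highest member, on the log2(FPKM + 1) scale, ABL503 minus Control. The counts at the right give members that rose and fell of those tested, and cytosolic chaperones have the most rises, 6 of 12.

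The direct comparison with Pembrolizumab asked which of these levels differed between the 2 antibodies when each was given alone. ABL503 libraries had more Tnfsf4, Cd70, Il1r2 and Hspa8 and less perforin and granzymes A and B. In all, 151 genes passed (1.28%), 102 higher in ABL503 (0.865%) and 49 lower (0.415%). With each library scaled to an equal sum the split was 154 and 43, and under quantile normalization 73 and 54. The count was from 54 without ABL503 library 2 to 218 without ABL503 library 1, and between 65 and 119 in the other 8 runs that left out 1 library. Of 38 named genes that passed, 18 passed whichever library was left out. Many genes described above also passed in Pembrolizumab against Control, which shares the Control libraries, and those given here are examples. Rises there were 1.15 for Tnfrsf9, 1.00 for Havcr2, 3.41 for Serpine2, 1.35 for Tnip3 and 1.74 for Ms4a4a. Further rises were 3.23 for Gzmf, 1.19 for Ccl3, 1.09 for Slc2a3, 0.84 for Pgk1, 0.64 for Plp2 and 0.68 for Fkbp1a. Gimap6 differed by -0.51 and Rgs10 by -0.97. The adjusted p of these genes was at most 0.014. Tnfsf4, Cd70, Il1r2 and Gzmc did not pass there, with adjusted p from 0.0995 to 0.58.

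Among genes higher in ABL503 were 4 ligands of the TNF superfamily. Tnfsf4 averaged 24.6 ± 5.08 FPKM in ABL503 and 6.28 ± 1.88 in Pembrolizumab (1.83, SE 0.29, adjusted p = 0.0050), and Cd70 20 ± 5.32 and 3.57 ± 2.59 (2.32, SE 0.46, adjusted p = 0.015). Tnfsf11, which encodes RANKL, averaged 13.9 ± 4.42 and 3.63 ± 1.33 (1.68, SE 0.31, adjusted p = 0.012), with 6.45 ± 1.69 in Control between them. The remaining ligand was Ltb, whose call was lost in 9 of the 10 runs that left out 1 library. Il1r2 averaged 389.8 ± 108 and 82 ± 32.9 FPKM (2.28, SE 0.39, adjusted p = 0.0061), and Tff1 138 ± 26.4 and 28.3 ± 7.47 (2.26, SE 0.31, adjusted p = 0.0045). Hspa8 was higher by 0.58 (SE 0.10, adjusted p = 0.0056), and Hspa1a by 1.67 (SE 0.33, adjusted p = 0.016), the latter not past the threshold without ABL503 library 2 or Pembrolizumab library 1. Hspd1 (0.56, SE 0.14, adjusted p = 0.045) and Hsph1 (1.01, SE 0.24, adjusted p = 0.044) passed narrowly, and their calls were lost in 7 and 8 of the 10 runs. Cd83, a surface protein of activated lymphocytes and dendritic cells, averaged 37.4 ± 12 and 9.83 ± 2.04 (1.79, SE 0.26, adjusted p = 0.0045). Cd74, the invariant chain of MHC class II and a marker of antigen-presenting cells, averaged 121 ± 37.8 and 42.9 ± 18.4 (1.53, SE 0.32, adjusted p = 0.022). The summed level of the dendritic and antigen-presenting list ran from 117 to 304 FPKM in ABL503 and from 46.3 to 162 in Pembrolizumab, and both genes also passed with the term for other-cell markers in the model. That term averages several cell types and does not measure dendritic cells alone, and Cd74 is itself such a marker. Whether such cells contributed was not tested. The call for Cd74 was lost in 5 of the 10 runs. Fdps of the sterol path averaged 70.8 ± 8.4 and 35 ± 13.5 FPKM (1.06, SE 0.24, adjusted p = 0.034), lost in 7 of them.

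Lower in ABL503 were the main killing molecules. Prf1 averaged 12 ± 4.09 FPKM in ABL503 and 33 ± 4.34 in Pembrolizumab (-1.43, SE 0.21, adjusted p = 0.0045), Gzmb 1017 ± 142 and 2246 ± 301 (-1.14, SE 0.20, adjusted p = 0.0061), and Gzma 215 ± 142 and 801 ± 247 (-2.02, SE 0.34, adjusted p = 0.0055). These 3 passed whichever library was left out. Bnip3, a hypoxia-induced gene of mitophagy, was lower by a log2 difference of -1.20 (SE 0.28, adjusted p = 0.040) and Zbtb32 by one of -1.02 (SE 0.24, adjusted p = 0.038), lost in 9 and 7 of 10 runs. Cnih2 and Sv2c completed the rule, with differences of -1.09 and -1.07 (adjusted p = 0.013 and 0.038), the latter lost in 8 runs. Tnfrsf9 averaged 163 ± 15.8 and 241 ± 38.8 FPKM (-0.55, SE 0.12, adjusted p = 0.020), not past the threshold without ABL503 library 2 or Pembrolizumab library 1. Gimap6, at 216 ± 15.9 and 211 ± 13.7, differed by 0.03 (SE 0.09, adjusted p = 0.92).

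**Figure D5:**
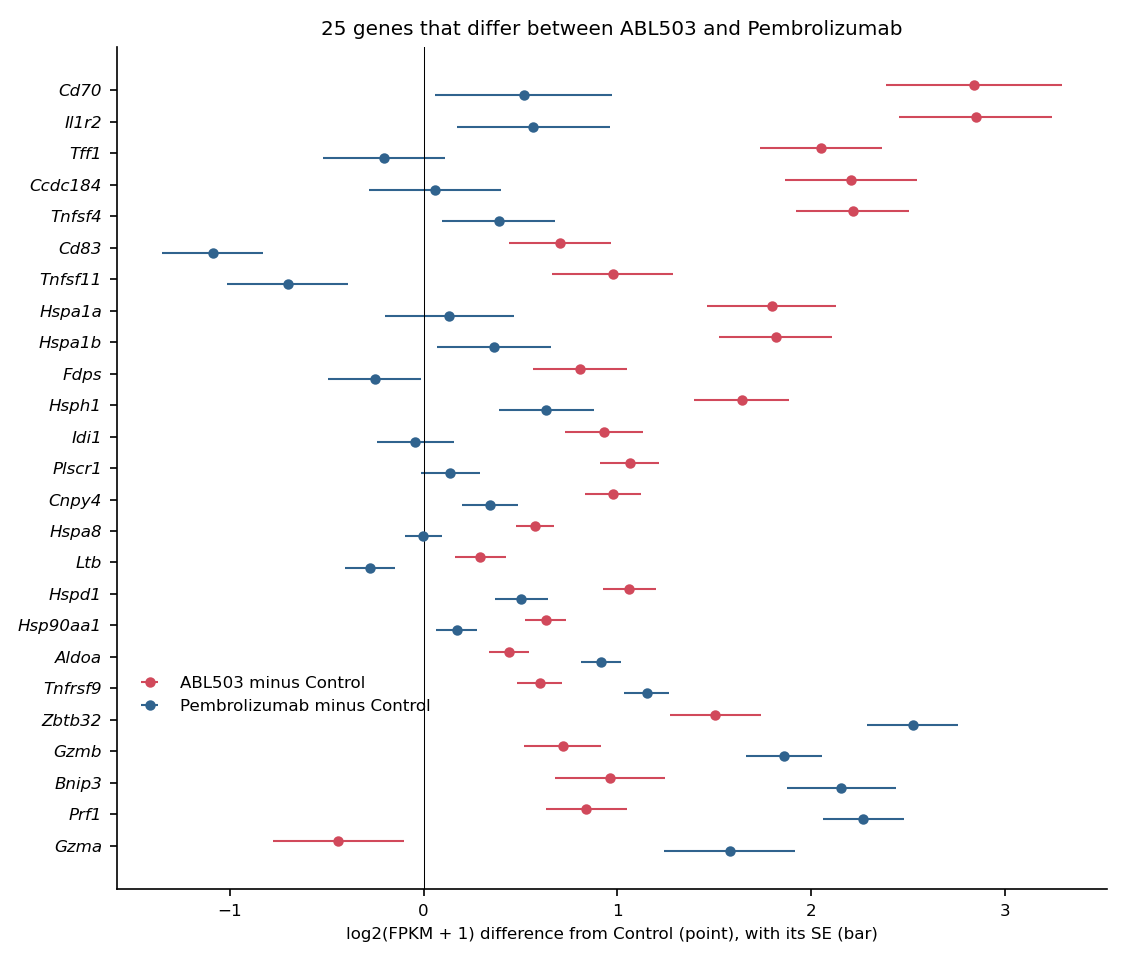
Differences from Control of 25 genes under ABL503 (red) and Pembrolizumab (blue), as log2(FPKM + 1) with bars of 1 SE, ordered by the difference between the 2 antibodies. All 25 passed the direct test between ABL503 and Pembrolizumab; both sets of points share the 5 Control libraries, and Cd70 is at the top and Gzma at the bottom.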

How the data were processed

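RNA of sorted CD8+ tumour-infiltrating T cells was made into libraries with SMART-Seq v4, per the labels' protocols. The authors aligned reads with HISAT2 and quantified them with StringTie on GRCm38 (mm10), per the submitters' processing notes, and versions are not given in the sources used here. The deposited values are taken as FPKM, which is inferred, since the table names no unit. The depth of each library is unknown, and the strand setting of the counting is not given in the sources used here.

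Genes reaching 1 FPKM in 5 or more of the 20 libraries were analysed as log2(FPKM + 1) with limma 3.58.1 in R 4.3.3: 1 mean for each of 4 groups, 16 residual degrees of freedom, a variance trend with intensity, two-sided tests and Benjamini-Hochberg adjustment over all 11794 genes. Whether each library is a separate mouse is not in the labels, and p-values therefore measure only the spread between these samples, which may be technical. Summaries and plots came from Python 3.11.15 (pandas 2.3.3, matplotlib 3.10.9).

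The comparison and the 41 gene lists (674 genes, 566 tested) were chosen with earlier results of these data known. Lists are described by counts and medians beside all genes, with no set test. Named genes were those past the threshold with a mean log2 level of at least 2, leaving out predicted models, pseudogenes and small RNAs, which were 12 of the 73. Of the rest, 53 met the level and 8 did not. From each list, up to 6 genes of lowest p, then a fixed panel, and the 6 largest differences each way against Pembrolizumab above a mean of 3 were added. Gene positions and promoters are RefSeq's for GRCm38.p6, and 45 of the 73 genes had a promoter entry. Of all symbols, 88.9% were found there. Whether replicate numbers pair samples is not in the labels. Same-numbered Control and ABL503 libraries correlated between -0.146 and 0.0831 in their deviations from the group means. Same-numbered Pembrolizumab and ABL503 libraries correlated between 0.0143 and 0.0712. Weak correlations over so few libraries cannot exclude a pairing, so it remains unknown. On simulated data for ABL503 against Control with 11794 genes, the test found 58.2% of the 1.5-fold and 85.1% of the 2-fold changes. It found all 66 of the 4-fold changes and made 8 wrong calls. Changes were placed only in genes with a Control mean log2 level above 2, on the log2(FPKM + 1) scale. The noise was normal and independent between genes and libraries. These rates therefore do not cover genes of lower level, correlated genes or outlying libraries, as the real data hold. Alternatives are given in the closing section. A planned comparison of protein sequences was not made.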

Additional observations from a re-analysis of the deposited data

Results flagged for a closer look

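A value that stood far from the other 4 of its group was sought in 312 groups of 5 values, and 15 were found (gap over range above 0.71). Chance gives about 1 in 20 such groups. ABL503 library 1 accounted for 7, Control library 1 for 4, ABL503 library 5 for 3 and ABL503 library 3 for 1.

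In ABL503 library 1, the values that lay low were Gzmc at 248.2 FPKM (others 396.4 to 472.8), Ccl1, a chemokine, at 44.51 (89.63 to 98.26), Eea1 at 5.445 (7.416 to 8.185) and the SLAM family receptor Slamf6 at 32.36 (39.46 to 41.52). Those that lay high were Pgk1 at 328.7 (250.5 to 257.5), Fabp5 at 76.72 (59.57 to 63.96) and Gzmb at 1266 (927.2 to 1007). In ABL503 library 3, Tff1 lay low at 92.63 (137.2 to 157.6). ABL503 library 5 lay high for Tnfrsf18 at 1004 (830.5 to 855.4) and for Rtp4, an interferon-induced gene, at 39.47 (15.0 to 18.98), and low for Asns, asparagine synthetase, at 11.31 (18.43 to 20.86).

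Control library 1 lay high for Tnfrsf9 at 131.2 FPKM (others 97.37 to 103.8), for Satb1 at 70.04 (35.35 to 39.34) and for Gzme at 1.18 (0 to 0.0485), and low for Ltb at 105.9 (135.6 to 142.2). The single high Tnfrsf9 value in Control still lay below the lowest ABL503 value, 139 FPKM.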

How the results depend on the processing

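Named genes given by level alone were not followed against Control. Of the other named genes, none changed direction under any alternative. Of their ABL503 against Control values, 2743 stayed on the same side of the threshold, 391 were no longer past it and 56 were newly past it. For ABL503 against Control the count of 73 (69 higher, 4 lower) was 42 (40 and 2) with no filter, 115 at an adjusted p under 0.1 (15 lower), 30 (28 and 2) with an absolute log2 change of at least 1, and 37 (32 higher) without Control 1 and ABL503 3, the pair given least weight by limma's array weights. The lower count was 7 with quantile normalization, 9 with only the groups compared and 7 with the immediate early covariate. Leaving out 1 library gave 40 to 72 in all, 38 to 65 higher and 2 to 7 lower. For ABL503 against Pembrolizumab the count of 151 (102 and 49) was 67 (53 and 14) with no filter, 301 (193 and 108) with array weights, 327 (191 and 136) with the immediate early covariate, 314 (211 and 103) at an adjusted p under 0.1, 37 (24 and 13) with a log2 change of at least 1 and 88 (64 and 24) without that pair. With equal column sums 154 were higher, and with the other-cell covariate 32 were lower. Leaving out 1 library gave 54 to 218 in all, 39 to 135 higher and 15 to 83 lower. Genes without overlap, 200 above and 105 below, were 379 and 322 without that pair, and 242 to 303 and 145 to 239 with 1 library left out. List counts moved by more than 1.5 times, were lost or arose in 37, 87 and 17 cases, mostly between 0 and 1 member. The cause of these shifts was not tested. Some settings also used fewer samples or adjusted over more genes. Whether libraries of the same number belong together is unknown. With the replicate block 60 genes (56 and 4) passed against Control and 120 (80 and 40) against Pembrolizumab. Of the libraries, 0 of 5 Control and 2 of 5 Pembrolizumab correlated best with the ABL503 library of their own number. Depth is unknown, so the limit it sets cannot be given.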

Other observations

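Some genes outside the account above separated the 2 groups without passing the test. The dendritic cell factor Zbtb46, also listed as a marker of antigen-presenting cells, ran from 1.72 to 5.13 FPKM in Control and from 5.87 to 8.38 in ABL503 (0.90, SE 0.22, adjusted p = 0.071), and it was higher than in Pembrolizumab (1.36, SE 0.22, adjusted p = 0.0050). Ifngr1, an interferon gamma receptor chain, ran from 389 to 550 FPKM in Control and from 330 to 373 in ABL503 (-0.42, SE 0.11, adjusted p = 0.10). Cflar, an inhibitor of caspase 8 that NF-kB is known to induce, ran from 21.9 to 31.7 FPKM and from 36.9 to 43.5 (0.53, SE 0.12, adjusted p = 0.057). Pdia4, a disulfide isomerase of the endoplasmic reticulum, ran from 8.49 to 11.7 and from 13.7 to 23.2 (0.61, SE 0.15, adjusted p = 0.074).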
